A study of Mus musculus with 6 samples.

Results

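The genes described here are 37 mouse genes of protein folding in the endoplasmic reticulum (ER) and of the unfolded protein response, the signalling that adjusts ER capacity when unfolded protein builds up. They were taken as a list of symbols from the 55385 mouse genes of the count table. The rule for membership uses no measured value, but the list was drawn up with earlier results of these data known. RNA was sequenced in bulk from PDVC57, an established mouse squamous carcinoma line derived from keratinocytes, in 6 libraries. The labels assign 3 libraries to a Sox2 knockout (replicates 1 to 3) and 3 to Sox2 overexpression (replicates 1 to 3). Sox2 is a transcriptional regulator active in stem cells and in squamous tumours. Both groups share the PDVC57 line, and the labels name no treatment, time, animal age or unmodified PDVC57 control, so the comparison is between the engineered states alone. The labels give neither the number of clones behind each genotype nor the construct that carried Sox2. The series' design text describes low-Sox2 and high-Sox2 carcinoma cells taken out of tumours that had been grafted, whereas the sample labels describe PDVC57 cells only. Its stated aim was to find what Sox2 switches on in tumour stem cells that acts on neutrophils. Nothing states whether the replicates came from separate cultures or animals, so the p-values measure the spread between these samples, which may be technical.

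Secreted and membrane proteins enter the ER unfolded. There the Hsp70 chaperone BiP and the Hsp90 chaperone Grp94 hold them, the lectins calnexin and calreticulin hold those with N-linked sugars, disulfide isomerases pair their cysteines, and prolyl hydroxylases and FKBP prolyl isomerases act mainly on collagen-like chains. Unfolded protein activates the sensors IRE1, PERK and ATF6, which act through XBP1, ATF4 and ATF6 itself to raise chaperones, ER-associated degradation (ERAD) and amino acid supply. Squamous keratinocytes secrete matrix and adhesion proteins, while fibroblasts export far more collagen and carry much of the collagen-folding machinery.

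Library totals lay between 31247976 and 38543221 counts over mouse genes. Levels are given as CPM, the usual depth-scaled count, with library sizes adjusted by TMM, and 3 counts, the limit that a count of 0 allows, correspond to 0.0759 to 0.101 CPM. Sox2 itself had 49, 34 and 25 counts in the knockout libraries against 2566, 3790 and 4095 with overexpression, a log2 fold change of 6.58 (SE 0.33, edgeR adjusted p = 2.29e-06). Markers of the labelled cell type were present in all 6 libraries, since the summed level of 23 epithelial markers was 7441 to 11750 CPM in the knockout and 18950 to 24350 CPM in the overexpression libraries. Fibroblast markers divided the groups much more. Their summed level, over 10 genes such as Col1a1 and Pdgfra, was 58620 to 86010 CPM in the knockout and 264 to 427 CPM in the overexpression libraries, and 10 of 10 fell. In bulk RNA, fewer cells of a type and less RNA per cell cannot be told apart.

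Of the 37 genes, 37 passed the filter on low counts. By edgeR's quasi-likelihood test at an adjusted p under 0.05, 4 rose with Sox2 overexpression (10.8%) and 12 fell (32.4%), beside 13.6% higher and 18.0% lower among all 18504 tested genes. The overexpression libraries were all above the knockout libraries for 5 genes (13.5%; 24.4% of all tested genes) and all below for 14 (37.8%; 26.5% of all tested genes). The median log2 fold change of the 37 was -0.16, against -0.02 for all tested genes. By role, 4 of 4 listed ER FKBPs, 3 of 5 transcription factors and 1 of 2 prolyl 4-hydroxylase alpha subunits fell, while 1 of 9 genes of the BiP and Grp94 system and 1 of 5 disulfide isomerases did. These changes are relative to the bulk of genes. With library sizes set by the epithelial markers instead, the median of all genes moved to -1.07. By edgeR, 33 of the 37 genes then passed as lower and no gene of the 37 passed as higher. Most genes of any kind passed as lower under this scaling, 12852 of all 18504 tested genes, and 387 passed as higher. Of the 37, 13 lay above that median.

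**Figure D1:**
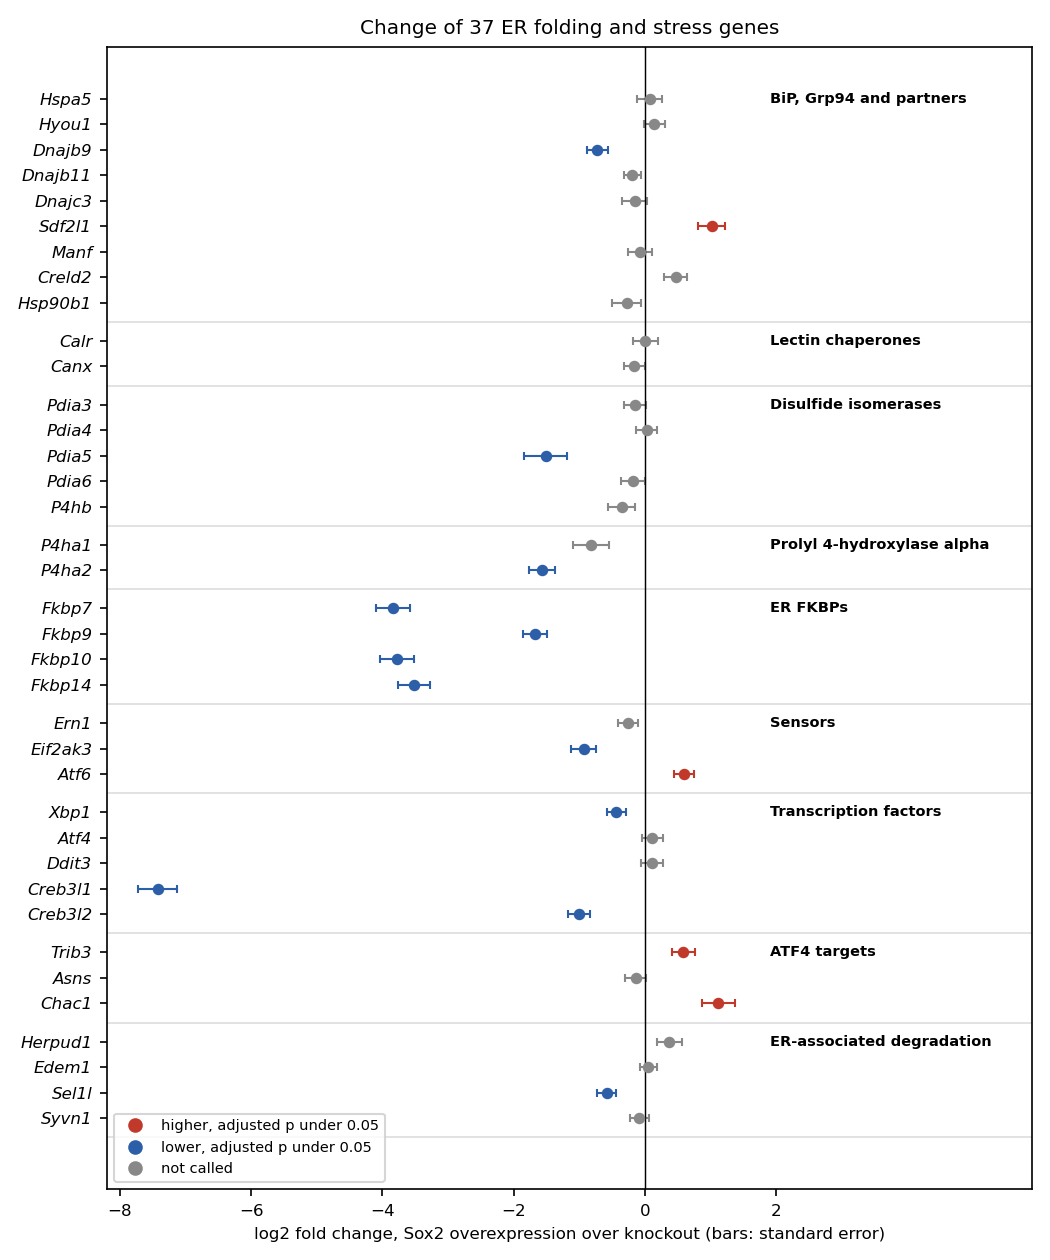
Each point is 1 of the 37 genes, grouped by role, with its log2 fold change (overexpression over knockout, x axis) and bars of 1 standard error; red and blue mark genes past the adjusted p threshold. Creb3l1 at -7.43 and the 3 FKBP genes between -3.83 and -3.52 lie far to the left, and the gene farthest to the right is Chac1 at 1.12.

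Sequence upstream of the genes is shown because the ER stress element (ERSE), bound by ATF6 and XBP1 with NF-Y, is the textbook control site of ER chaperone genes. RefSeq promoters (GRCm38.p6) were matched by symbol for 32 of the 37 genes, and the 250 bases before each start were searched on both strands. The unmatched genes are Hyou1, Manf, Atf6, Fkbp10 and Creb3l1. The ERSE was searched as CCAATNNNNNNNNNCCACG and found in 8 of the 32 genes (25%), compared with 37 of 32851 promoters of the same length (0.113%). Only exact matches wholly inside the window were counted, so variant elements and those crossing its edge were missed. The Herpud1 window, for example, ends in the ERSE pattern short of its last base, which was not counted. The stretches below are written 5′ to 3′ on the strand of the gene, with the element in capitals and 5 bases on each side. Where the element lies on the opposite strand it reads CGTGG first and ATTGG last.
Hspa5: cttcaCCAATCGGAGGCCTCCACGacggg
Hsp90b1, outer: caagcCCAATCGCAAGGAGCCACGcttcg
Hsp90b1, inner: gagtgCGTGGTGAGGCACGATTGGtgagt
Calr: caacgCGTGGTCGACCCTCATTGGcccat
Canx: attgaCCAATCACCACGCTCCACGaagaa
Creld2: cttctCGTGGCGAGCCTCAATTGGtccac
Dnajc3: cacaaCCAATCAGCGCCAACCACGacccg
Pdia6: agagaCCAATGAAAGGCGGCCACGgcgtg
Syvn1: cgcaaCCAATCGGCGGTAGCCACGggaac
The stretch of Hspa5 is chr2:34772020-34772048 on the plus strand, with the element starting 65 bases upstream of the RefSeq start, inside an Hspa5 exon of GENCODE, which begins the gene further upstream. Hsp90b1 holds a pair of elements, at chr10:86705633-86705661 and chr10:86705528-86705556 on the minus strand. The remaining stretches lie outside annotated genes, at chr8:84847070-84847098 (minus, Calr), chr11:50325795-50325823 (minus, Canx), chr15:88819515-88819543 (plus, Creld2), chr14:118937822-118937850 (plus, Dnajc3), chr12:17266486-17266514 (plus, Pdia6) and chr19:6046527-6046555 (plus, Syvn1). Both Hsp90b1 stretches are outside annotated genes as well.

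The 8 genes with an ERSE had log2 fold changes between -0.28 and 0.47 with a median of -0.12. Of these 8, edgeR called 0 after adjustment and 1 (Creld2) at an unadjusted p under 0.05, and DESeq2 called 0. Among genes outside the list, 27 carried the element, 12 of them were tested, and 1 rose (8.33%) and 5 fell (41.7%), beside 13.6% and 18.0% of all tested genes. A shorter form, ERSE-II, searched as ATTGGNCCACG, occurred in Herpud1 alone among the 32 genes and in 10 promoters overall (0.0304%). The core of the XBP1 element, TGACGTGG, shares the letters CGTGG with the reversed ERSE and was in 0 of the 32 and in 185 promoters (0.563%). Of the 103 tested genes with it, 14 rose (13.6%) and 27 fell (26.2%). The core of the site for ATF4 with C/EBP proteins, TGATGNAA, was in Asns, Chac1 and Herpud1 (9.38%) and in 1134 promoters (3.45%). In Chac1 and Herpud1 it lies on the opposite strand and reads TTGCATCA. Of the 319 tested genes with it, 38 rose (11.9%) and 62 fell (19.4%). A match describes letters in these windows only.
Herpud1, ERSE-II: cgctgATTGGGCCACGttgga
Chac1, ATF4 site core: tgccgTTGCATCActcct
Asns, ATF4 site core: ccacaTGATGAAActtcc
These stretches are at chr8:94386372-94386392 (plus), within an intron of Gm15890 on the opposite strand, at chr2:119351044-119351061 (plus), outside annotated genes, and at chr6:7693220-7693237 (minus), inside an Asns exon in GENCODE. The ATF4 core of Herpud1 is in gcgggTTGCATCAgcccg at chr8:94386312-94386329 (plus), also within an intron of Gm15890. Of the 3 genes with the ATF4 core, Chac1 rose, and Asns and Herpud1 did not pass the test.

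The most abundant lumenal chaperones had overlapping levels in both groups. Hspa5, which encodes BiP (ENSMUSG00000026864, chr2:34771970-34777547, plus strand), was at 1164, 1475 and 1274 CPM in the knockout and 1508, 1173 and 1430 CPM in the overexpression libraries. Overexpression replicate 2 was among the lowest of the 6 and knockout replicate 2 among the highest. The log2 fold change was 0.07 (SE 0.18, edgeR adjusted p = 0.795), and its approximate 95% interval of -0.35 to 0.49 reaches from a 0.785-fold to a 1.41-fold level. Hsp90b1, which encodes Grp94, was at 961, 1077 and 1041 CPM in the knockout and 1030, 592 and 916 CPM in the overexpression libraries, a log2 fold change of -0.28 (SE 0.22, adjusted p = 0.372). Overexpression replicate 2 held the lowest value by a wide margin, and the other overexpression values lay near or within the knockout range. Together the 9 genes of this system summed to 2793, 3324 and 3038 CPM in the knockout and 3257, 2568 and 3013 CPM with overexpression, so the groups overlapped in total as well.

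Partners of BiP went in different directions. Sdf2l1, a lumenal partner of the J-domain proteins that keep clients soluble, rose from 17.7, 25.3 and 21.8 CPM to 41.1, 54.2 and 36.1 CPM. The log2 fold change was 1.02 (SE 0.21, adjusted p = 0.00573), with no overlap between groups, but it was -0.06 with library sizes set by the epithelial markers (the epithelial scaling). Dnajb9, the J-domain protein ERdj4 that restrains IRE1 through BiP, fell from 61.9, 72.9 and 63.3 CPM to 42.8, 33.2 and 44.0 CPM. Its log2 fold change was -0.72 (SE 0.16, adjusted p = 0.00898), and overexpression replicate 2 was the lowest of the 6 libraries. For Dnajb9, Mir5627 lies within the exons on the other strand.

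The other 5 genes of the system did not pass the test. Creld2, a secreted folding factor of ER stress, was at 48.7, 63.3 and 61.1 CPM in the knockout and 78.8, 94.8 and 65.8 CPM with overexpression, so the groups did not overlap, and its adjusted p was 0.0813 (log2 fold change 0.47, SE 0.18). Hyou1, the large nucleotide exchange partner of BiP, had means of 214 ± 8.31 and 237 ± 36.4 CPM (SD, n = 3 each). Manf, a secreted stress-protective factor that binds BiP, had means of 132 ± 19.2 and 126 ± 22.8 CPM. The J-domain cochaperones Dnajb11 and Dnajc3 had means of 128 ± 6.78 and 101 ± 8.97 CPM in the knockout and 113 ± 7.33 and 90.2 ± 19.7 CPM with overexpression. For Dnajb11 the overexpression libraries were all below the knockout libraries (log2 fold change -0.19, adjusted p = 0.318).

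The lectin chaperones and most disulfide isomerases also had overlapping groups. Calr (calreticulin) was at 1012, 1239 and 1021 CPM in the knockout and 1055, 1279 and 956 CPM with overexpression, with a log2 fold change of 0.01 (95% interval -0.41 to 0.43). Replicate 2 was the highest library in both groups. Canx (calnexin) had means of 413 ± 18.9 and 370 ± 46.4 CPM, and Pdia3, the isomerase that works with both lectins, 798 ± 61.7 and 720.4 ± 81.0 CPM. Pdia4 had means of 175 ± 16.4 and 179 ± 24.9 CPM, and Pdia6, a BiP-associated isomerase, 296 ± 40.2 and 260.4 ± 44.1 CPM. Adjusted p-values of these 5 genes lay between 0.468 for Pdia6 and 0.98 for Calr.

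Pdia5, a less abundant disulfide isomerase, was the member of its family that fell. It was at 20.3, 30.2 and 32.6 CPM in the knockout and 6.22, 14.8 and 8.32 CPM in the overexpression libraries, with no overlap. The log2 fold change was -1.51 (SE 0.33, adjusted p = 0.00817). P4hb encodes protein disulfide isomerase itself, which also serves as the beta subunit of prolyl 4-hydroxylase. It was at 614, 721 and 660 CPM against 433, 662 and 465 CPM, a log2 fold change of -0.36 (SE 0.20, adjusted p = 0.209). Overexpression replicates 1 and 3 lay below the knockout range and replicate 2 within it; without overexpression replicate 2 the log2 fold change was -0.56 (adjusted p = 0.0192).

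Of the catalytic alpha subunits of prolyl 4-hydroxylase, which hydroxylate collagen prolines, P4ha2 fell and P4ha1 did not pass the test. P4ha2 (ENSMUSG00000018906, chr11:54100095-54131665, plus strand) fell from 88.2, 124 and 134 CPM to 34.1, 44.5 and 38.5 CPM, a log2 fold change of -1.56 (SE 0.20, adjusted p = 0.000421). P4ha1 was at 69.0, 109 and 110 CPM in the knockout and 41.1, 44.4 and 77.2 CPM with overexpression. Overexpression replicate 3 lay above knockout replicate 1, and the log2 fold change of -0.82 (SE 0.28) had an adjusted p of 0.0527. This value sits at the edge of the threshold: it was 0.0106 without overexpression replicate 3, with a log2 fold change of -1.17, and 0.0291 without knockout replicate 1, with -1.01. DESeq2 gave an adjusted p of 0.0191 for P4ha1.

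**Figure D2:**
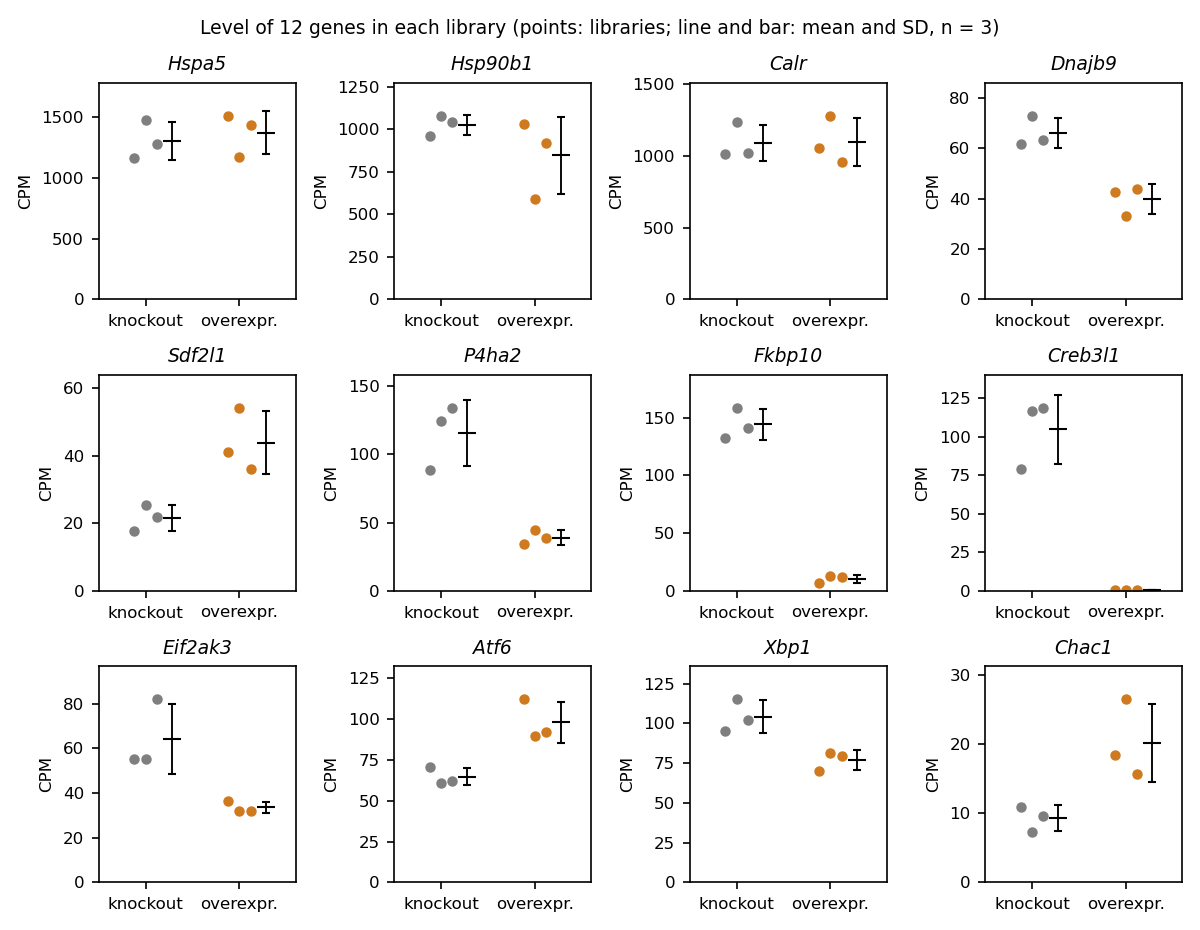
CPM of 12 of the genes in each library (y axis, starting at 0), with knockout libraries in grey, overexpression libraries in orange and the mean and SD (n = 3) beside them. Hspa5, Hsp90b1 and Calr overlap between groups, whereas Fkbp10 and Creb3l1 drop from above 79 CPM to below 13 CPM.

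The 4 listed FKBP prolyl isomerases of the ER lumen all fell. Of 2 further ER FKBPs, counted below with collagen folding and export, Fkbp11 fell (log2 fold change -2.97, adjusted p = 0.000105) and Fkbp2 did not pass. Fkbp2 was at 53.0, 63.0 and 58.7 CPM in the knockout and 58.1, 79.0 and 63.1 CPM with overexpression (0.20, SE 0.16, adjusted p = 0.387), so its groups overlapped. Fkbp10 encodes FKBP65, a collagen chaperone (ENSMUSG00000001555, chr11:100415697-100424824, plus strand). It was at 133, 159 and 141 CPM in the knockout and 6.59, 12.6 and 12.3 CPM with overexpression, 13.7-fold lower by the means (log2 fold change -3.78, SE 0.26, adjusted p = 1.33e-05). Every overexpression library lay more than 100 CPM below every knockout library. Fkbp10 shares exon sequence with Nt5c3b on the other strand. Fkbp7 fell from 22.9, 39.9 and 36.4 CPM to 2.20, 2.64 and 2.12 CPM, a log2 fold change of -3.83 (SE 0.26, adjusted p = 1.15e-05). Fkbp14 (FKBP22), which acts on collagen and whose exons overlap Plekha8 on the other strand, fell from 23.1, 37.6 and 38.0 CPM to 2.90, 2.77 and 2.91 CPM. Its log2 fold change was -3.52 (SE 0.24, adjusted p = 1.22e-05), and its overexpression values were the most uniform of the 4.

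Fkbp9 had the highest knockout level per length of the 4 listed FKBPs and the smallest log2 fold change in size among them. It fell from 268, 350.1 and 326 CPM to 81.1, 108 and 107 CPM, a log2 fold change of -1.67 (SE 0.18, adjusted p = 0.000187). Per kilobase of merged exons, Fkbp9 had 94.9 CPM in the knockout against 49.2 CPM for Fkbp10, 22.3 CPM for Fkbp7 and 7.93 CPM for Fkbp14. With overexpression the same levels per kilobase were 29.8, 3.58, 1.56 and 0.689 CPM, so Fkbp9 was again the highest of the 4, while Fkbp2 had 35.5 CPM per kilobase in the knockout and 40.7 with overexpression. The summed level of the 4 genes was 446 CPM in knockout replicate 1, 586.5 in replicate 2 and 541 in replicate 3, and 92.8, 126 and 124 CPM in the overexpression libraries. The fibroblast marker sum had the same order in the knockout group, with 58620, 86010 and 80630 CPM. In the overexpression group its order differed, with 264, 304 and 427 CPM. The part of fibroblast RNA in the fall of the FKBPs was not tested. Knockout replicate 1 was the lowest knockout library for 11 of the 12 genes that fell, 2 of the 4 that rose and 16 of the 21 that did not pass. It was the lowest for 8 of the 10 fibroblast markers.

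**Figure D3:**
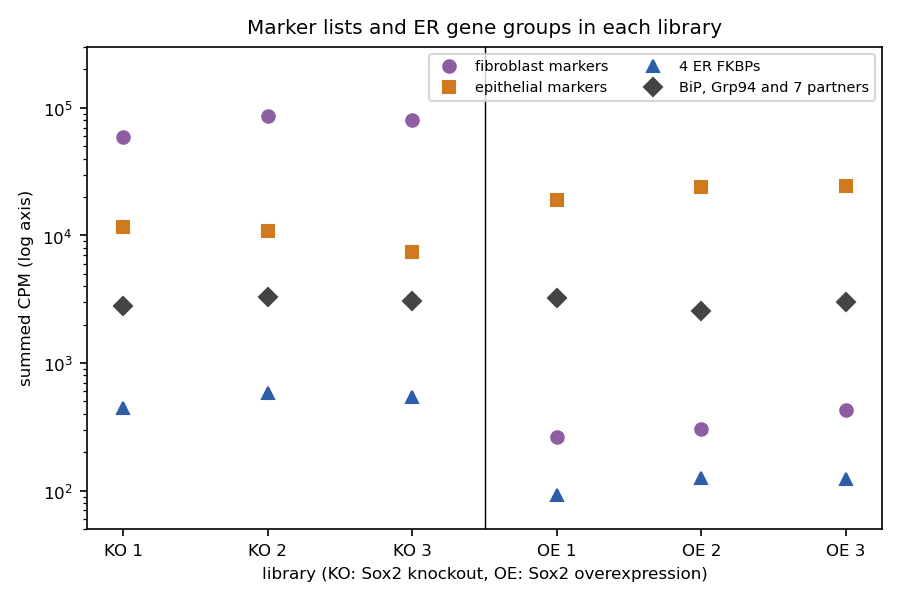
Summed CPM (log axis) of the fibroblast and epithelial marker lists, the 4 ER FKBPs and the 9 genes of the BiP and Grp94 system in each of the 6 libraries. Fibroblast markers and FKBPs step down from knockout (KO) to overexpression (OE), epithelial markers step up, and the BiP and Grp94 system stays between 2568 and 3324 CPM.

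The 3 sensor genes differed from one another. Eif2ak3 encodes PERK, the kinase that phosphorylates eIF2alpha and slows translation. It fell from 55.1, 55.2 and 82.1 CPM to 36.6, 32.2 and 32.0 CPM, a log2 fold change of -0.93 (SE 0.19, adjusted p = 0.00584), with knockout replicate 3 well above the rest. Ern1, which encodes IRE1alpha, was at 48.1, 46.4 and 61.1 CPM against 45.3, 43.0 and 42.2 CPM. All its overexpression values were below all knockout values, but the difference did not pass (log2 fold change -0.25, SE 0.15, adjusted p = 0.245). Exons of Eif2ak3 overlap Gm43292 on the other strand.

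Atf6, the sensor that is itself a membrane-bound transcription factor, was the sensor gene that rose. It went from 70.8, 60.9 and 62.3 CPM to 112, 89.7 and 91.7 CPM without overlap, a log2 fold change of 0.60 (SE 0.15, adjusted p = 0.0165) that was -0.45 under the epithelial scaling. The call was lost without knockout replicate 2 (0.56, adjusted p = 0.077) and without knockout replicate 3 (0.58, adjusted p = 0.0667). Its relative Atf6b, outside the 37 genes, rose from 83.9, 88.8 and 66.2 CPM to 126, 189 and 141 CPM (log2 fold change 0.93, adjusted p = 0.00701; -0.12 with the epithelial scaling).

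Among the transcription factors, the collagen-linked CREB3 family members showed the large differences. Creb3l1, which encodes OASIS, an ER-bound factor known for collagen gene control in bone and fibroblasts (ENSMUSG00000027230, chr2:91982328-92024502, minus strand), was at 79.2, 117 and 119 CPM in the knockout libraries. In the overexpression libraries it had 20, 24 and 17 counts, or 0.61, 0.812 and 0.43 CPM, each above the 3-count limit. The log2 fold change was -7.43 (SE 0.30, adjusted p = 1.56e-06), the largest of the 37 genes in size. Creb3l2, its relative with a role in secretory capacity of cartilage cells, fell from 77.8, 83.1 and 69.3 CPM to 31.7, 44.8 and 37.7 CPM (log2 fold change -1.01, SE 0.17, adjusted p = 0.00206). Both fell without overlap, and the size differed greatly between them.

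Of the central transcription factors of the response, Xbp1 fell, and Atf4 and Ddit3 did not pass the test. Xbp1, the target of IRE1 splicing, was at 95.1, 115 and 102 CPM in the knockout and 69.8, 81.6 and 79.5 CPM with overexpression, a log2 fold change of -0.44 (SE 0.15, adjusted p = 0.0483). All overexpression libraries were below all knockout libraries, and counts per gene do not show how much of the message was spliced. The call rested on nearly every library: the adjusted p was 0.0744, 0.179 and 0.12 without knockout replicates 1, 2 and 3, and 0.125 and 0.104 without overexpression replicates 1 and 3. With the replicate number as a block it was 0.0679. Atf4, whose output is set largely by translation, was at 372, 442 and 375 CPM against 382, 481 and 422 CPM, a log2 fold change of 0.11 (95% interval -0.26 to 0.48, adjusted p = 0.631). Ddit3, which encodes the stress factor CHOP, was at 44.8, 46.5 and 64.3 CPM against 57.5, 54.1 and 56.1 CPM (0.11, 95% interval -0.28 to 0.50, adjusted p = 0.657). Exons of Ddit3 overlap Mars and Gm4189 on the other strand and, on its own strand, a second Ddit3 entry that held 16 counts in knockout replicate 3 and 0 in the other libraries.

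Of the 3 listed targets of ATF4, Chac1 and Trib3 rose and Asns did not pass. Chac1, a glutathione-degrading enzyme, went from 10.96, 7.31 and 9.68 CPM to 18.5, 26.5 and 15.7 CPM, a log2 fold change of 1.12 (SE 0.25, adjusted p = 0.00943), and of 0.04 (adjusted p = 0.895) under the epithelial scaling. Its groups did not overlap. Trib3, a pseudokinase induced by CHOP and ATF4, went from 15.6, 16.6 and 19.8 CPM to 24.3, 30.5 and 23.4 CPM (log2 fold change 0.59, SE 0.18, adjusted p = 0.0364), with -0.50 under the epithelial scaling. The Trib3 call was lost without knockout replicate 1 or 2 (adjusted p = 0.121 and 0.122) and without overexpression replicate 2 or 3 (0.0549 and 0.0552), and was 0.0524 with the replicate number as a block. Asns, asparagine synthetase, was at 24.6, 22.5 and 27.7 CPM against 24.5, 22.8 and 20.6 CPM (log2 fold change -0.14, adjusted p = 0.532).

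In ER-associated degradation, Sel1l, the adaptor of the HRD1 ubiquitin ligase complex, fell from 88.8, 96.4 and 101 CPM to 71.3, 60.4 and 59.6 CPM (log2 fold change -0.58, SE 0.14, adjusted p = 0.0144). Its groups did not overlap, but the adjusted p was 0.0573 without knockout replicate 2, 0.0665 without knockout replicate 3 and 0.0607 without overexpression replicate 3. Syvn1, which encodes the HRD1 ligase itself, had means of 103 ± 7.92 and 96.8 ± 8.25 CPM (adjusted p = 0.682). Edem1, a mannosidase-like factor that routes glycoproteins to degradation, had means of 66.7 ± 4.48 and 69.2 ± 2.82 CPM (adjusted p = 0.785). Herpud1, a membrane organiser of the complex, was at 42.0, 63.2 and 45.8 CPM against 57.5, 64.6 and 73.4 CPM (log2 fold change 0.37, SE 0.19, adjusted p = 0.168), with knockout replicate 2 inside the overexpression range. Exons of Hsp90b1, Manf, Pdia3, Pdia4, Pdia6 and Syvn1 also overlap other genes, so their counts may hold reads of these.

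**Figure D4:**
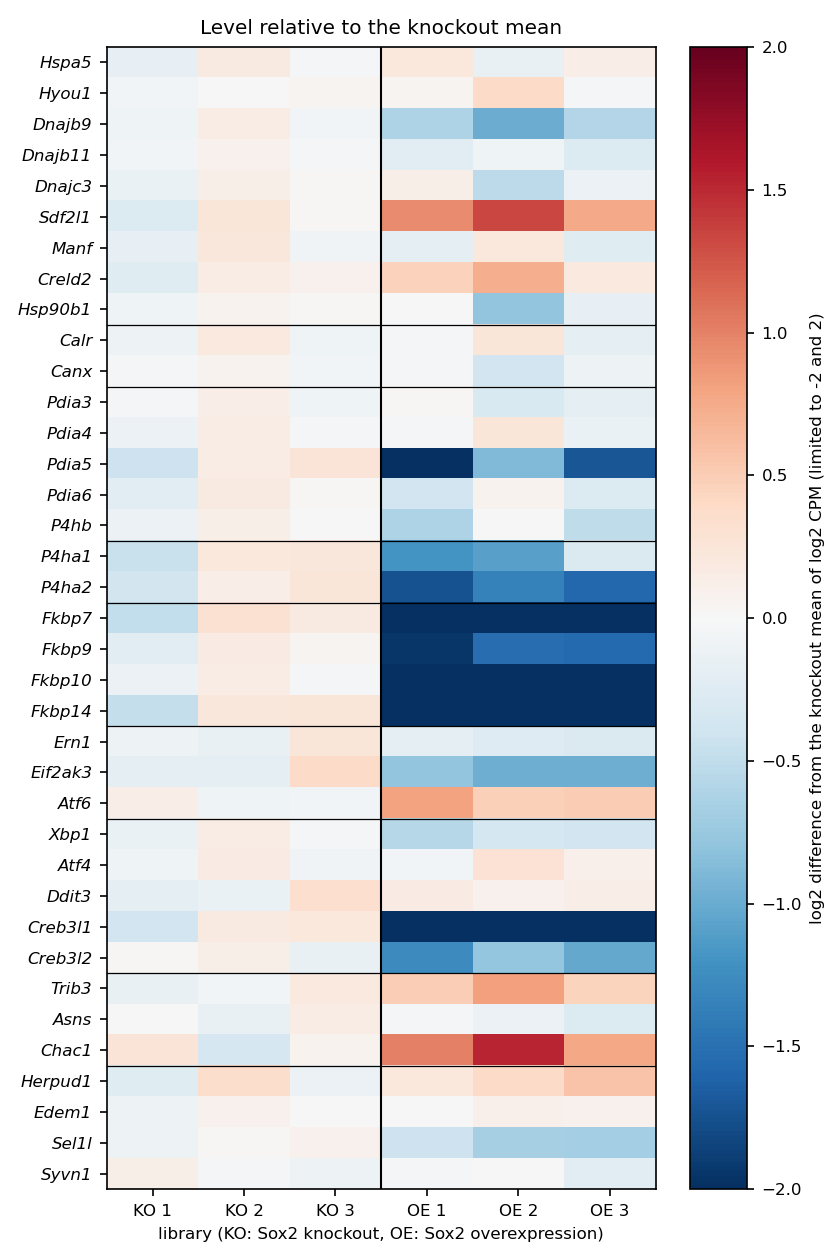
Each row is 1 of the 37 genes and each column 1 library (KO knockout, OE overexpression); colour gives the log2 difference from the mean of the knockout libraries, limited to -2 and 2. The FKBP rows and Creb3l1 are dark blue in all 3 overexpression libraries, Sdf2l1 and Chac1 are red in all 3, and the rows of Hspa5, Calr and Pdia4 hold pale colours of both signs.

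Levels per length put the same genes on top in both groups. Per kilobase of merged exons, the highest levels in the knockout were 379 CPM for Calr, 308.5 for Hspa5, 255 for Hsp90b1, 254 for Pdia3 and 232.5 for P4hb. With overexpression these 5 were also the highest, at 381, 324, 209.9, 229.5 and 182 CPM. The largest shifts of rank among the 37 were those of Creb3l1, from rank 13 to 37, and Fkbp10, from rank 11 to 33. Sdf2l1 and Chac1 moved up, from rank 25 to 11 and from rank 37 to 23.

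Genes of the same pathways outside the list were read from 10 lists with 156 genes, of which 155 were tested. Of these, 14 rose (9.03%) and 23 fell (14.8%), both below the 13.6% and 18.0% of all tested genes. Their median log2 fold change was 0.02. The list of collagen folding and export stood at 10 lower of 19 tested (52.6%), with a median of -0.92. Serpinh1, the collagen chaperone HSP47, was at 851, 1282 and 1231 CPM in the knockout and 6.53, 11.3 and 9.56 CPM with overexpression (log2 fold change -6.94, adjusted p = 1.92e-06). Of 7 genes of ER retrieval and the ATF6-cleaving proteases, 4 fell (57.1%). Among them, the KDEL receptor gene Kdelr3 went from 37.9, 51.2 and 44.4 CPM to 2.14, 4.94 and 3.97 CPM (-3.60, adjusted p = 4.43e-05). The count of 4 fell to 2 without any single knockout library and without overexpression replicate 1 or 3. Among all 18504 tested genes, 2702 to 3047 passed as lower in these fits, against 3329 with all libraries.

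In the lists closer to general ER capacity, 0% to 6.67% of tested genes rose per list, beside 13.6% of all tested genes. Lower genes made up 0% to 16.7% per list, beside 18.0% of all tested genes. Of 16 genes of translocation and signal peptide removal, Ssr4, a translocon subunit, rose (log2 fold change 0.65, adjusted p = 0.0392) and Sec11c, a signal peptidase subunit, fell (-0.74, adjusted p = 0.0269). Of 12 genes of N-glycosylation and folding checks, 2 fell, led by Uggt2 at -2.81 (adjusted p = 7.93e-05), from a mean of 13.1 to 1.87 CPM. Its more abundant relative Uggt1, a sensor of glycoprotein folding, had means of 203.9 and 204.1 CPM (log2 fold change 0.001, adjusted p = 0.996). Of 15 further genes of oxidative folding, Ero1l, the oxidase that recharges disulfide isomerases, rose by 0.94 (adjusted p = 0.0198) and 2 fell, led by the ER peroxiredoxin gene Prdx4 at -5.75 (adjusted p = 4.55e-06). Of 15 further ERAD genes, Erlec1, a lectin, rose by 0.51 (adjusted p = 0.0179). The calls of Ssr4 and Erlec1 were lost without any single knockout library, with adjusted p up to 0.123 for Ssr4 (without replicate 3) and 0.0771 for Erlec1 (without replicate 2). Ero1l did not pass without knockout replicates 1 or 2 or overexpression replicates 1 or 3 (up to 0.0758), nor Sec11c without knockout replicate 3 or overexpression replicates 1 or 3 (up to 0.105). Under the epithelial scaling Ssr4 was at -0.41, Ero1l at -0.14 and Erlec1 at -0.55.

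Further targets of ATF4 held 6 higher (16.7%) and 2 lower (5.56%) of 36, beside 13.6% and 18.0% of all tested genes, with a median of 0.17. The count of 6 was 3 without any single knockout library and 1 under the epithelial scaling. Among all 18504 tested genes the count higher was 2519, with 1412 to 1686 without a single knockout library and 387 under the epithelial scaling. Nupr1, a stress-induced chromatin protein, rose from 196, 177 and 122 CPM to 1522, 1196 and 926 CPM (log2 fold change 2.88, SE 0.26, adjusted p = 6.58e-05). Vldlr, a lipoprotein receptor, fell by 5.51 on the log2 scale (adjusted p = 5.09e-05). Of 8 tested relatives of the sensors, Creb3l3, a liver and gut member of the CREB3 family, had 3.99, 8.83 and 10.7 CPM in the knockout and 0.244, 0.372 and 0.228 CPM with overexpression (-4.80, adjusted p = 0.000114). Outside the ER, 2 of 18 cytosolic heat shock genes rose (11.1%, beside 13.6% of all tested genes), led by Hspa1b at 1.34 (adjusted p = 0.0268). Hspa1b is near-identical to Hspa1a, so that reads may be split between them. Hsph1, an Hsp110 chaperone, fell by 0.83 (adjusted p = 0.00594). Of 9 mitochondrial chaperones and proteases, 2 rose (22.2%), led by Hspe1 at 0.63 (adjusted p = 0.0376). Hspa1b did not pass without replicates 2 or 3 of either group (adjusted p up to 0.0954), nor Hspe1 without any single knockout library or overexpression replicate 3 (up to 0.111), and under the epithelial scaling Hspe1 was at -0.46. With any single knockout library left out, 5 of the 155 related genes passed as higher, against 14 with all libraries, and DESeq2 called 22. Calls among all 18504 tested genes dropped too, to 1412 to 1686 higher without a knockout library, against 2519 with all libraries. DESeq2 called 2951 of 18497 genes higher.

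**Figure D5:**
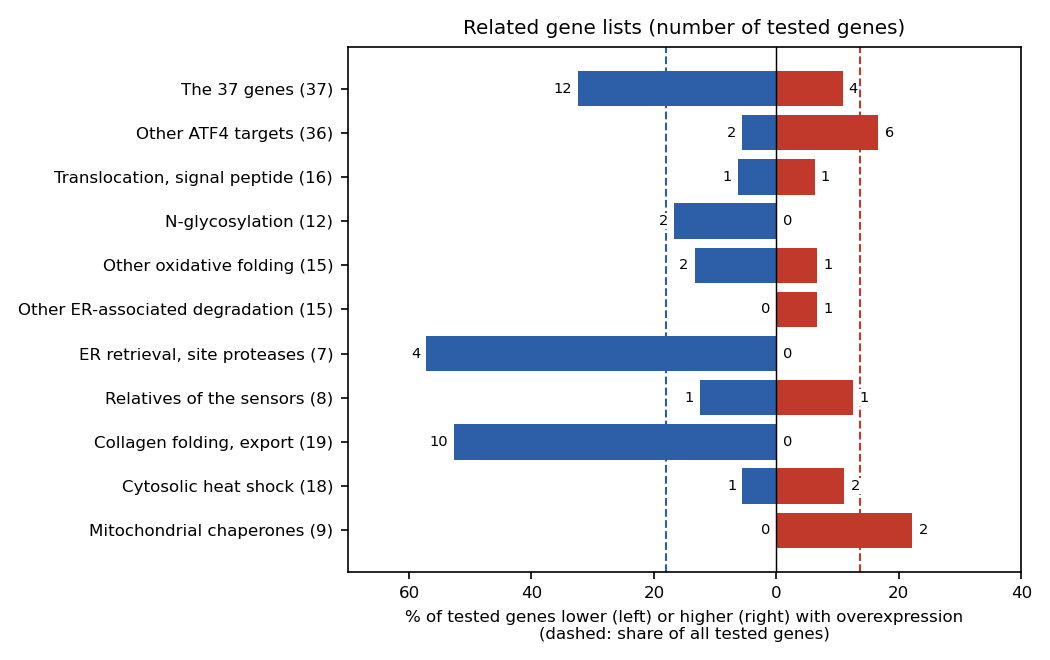
Share of tested genes lower (blue, left) and higher (red, right) with overexpression in the 37 genes and the 10 related lists, with counts at the bars and the shares among all tested genes as dashed lines (18.0% and 13.6%). Collagen folding and export (10 of 19) and ER retrieval (4 of 7, or 2 of 7 without most single libraries) reach farthest to the left.

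Markers of other cell types that could carry ER genes were read beside these results. Epithelial markers rose in 15 of 23. Fibroblast markers fell in 10 of 10 (median log2 fold change -7.65), and all 10 had counts in every overexpression library. The list of plasma cells, which hold a large ER, summed to 38.8 to 71.8 CPM in the knockout and 72.1 to 133 CPM with overexpression. Most of this was Prdm1, which keratinocytes also express. Of the 6 genes, 2 were tested. Prdm1 rose from 69.5, 41.0 and 27.5 CPM to 133, 71.9 and 109 CPM. Irf4 fell from 1.85, 7.14 and 10.3 CPM to 0.0305, 0 and 0.0253 CPM. Tnfrsf17 was at 0 in all 6 libraries, and Jchain did not exceed 0.521 CPM and Mzb1 0.381 CPM. White blood cell markers summed to 23.6 to 117 CPM in the knockout and 13.9 to 28.5 CPM with overexpression, with 3 of 8 genes at 3 counts or fewer in every overexpression library. Endothelial markers summed to 25.0 to 96.5 CPM and 11.8 to 19.0 CPM, and mural cell markers to 217 to 319 CPM and 27.8 to 56.5 CPM. Of the tested white blood cell, endothelial and mural markers, 3 of 5, 3 of 4 and 5 of 5 fell. The part of these cell types in the changes of the 37 genes was not tested.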

How the data were processed

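The deposited table holds whole-number counts per gene for 6 libraries, with no normalization. Per the submitters' processing notes, kallisto 0.44.0 and mm10 were used. Rounding of estimates, annotation and strandedness are not given in the sources used here, so overlapping genes and near-identical copies are uncertain. Per the labels' protocols, libraries were made with a low-input kit. Of 55481 rows, 96 (spike-ins and reporters, at most 2.23e-05% of a library's counts) entered neither library sizes nor tests. Symbols, positions and merged exon lengths came from GENCODE M21 (GRCm38).

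Genes that filterByExpr kept (at a count of 10 and a total of 15) were scaled with TMM and compared by the quasi-likelihood test of edgeR 4.0.16 in R 4.3.3, with group as the only term and Benjamini-Hochberg adjustment over 18504 genes (threshold 0.05). Fold changes are overexpression over knockout. The SE is the log2 fold change divided by the square root of F, and 95% intervals use it. Folds by the means are ratios of mean CPM. Limits of 3 counts cover counting error only. Tested on simulated counts for 18504 genes, with 200 changed, the fit recovered 24 of 100 changed 2-fold and 69 of 100 changed 4-fold. Of its 98 calls, 5 were false. With so few changed genes the adjusted threshold is stricter than in the real fit, where 31.6% passed.

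The members and lists were chosen with earlier results of these data known. The naming rule takes Sox2, the 37 genes and, in each related list, the gene with the smallest p past the threshold in each direction. Col1a1 and Pdgfra stand for the fibroblast list. Fkbp2, Fkbp11, Prdm1 and Irf4 were named after their values were seen. Uggt1, Hspa1a, Tnfrsf17, Jchain and Mzb1 were also named outside this rule. Alternatives were DESeq2 size factors (RLE), upper-quartile scaling, scaling to 23 epithelial markers, no filter beyond 1 count, robust dispersion (limma 3.58.1), the replicate number as a block, DESeq2 1.42.0 and leaving out each library. Replicates were compared, and no pair agreed within sampling noise (smallest chi-square per degree of freedom 43.8). Labels name no batch.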

Additional observations from a re-analysis of the deposited data

Results flagged for a closer look

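Counts appeared in 1 reporter sequence that the comparison does not use. The mCherry row held 8 counts in knockout replicate 3, above the 3 counts that a count of 0 allows, 1 count in knockout replicate 2 and 0 in the other 4 libraries. Groups of 3 libraries were not tested for outlying values.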

How the results depend on the processing

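Scaling to the epithelial markers moved the most values, since it shifted the median of all genes from -0.02 to -1.07. Under it 0 of the 37 genes passed as higher and 33 as lower, and 1 of the related genes as higher and 132 as lower. Of all 18504 tested genes, 387 passed as higher and 12852 as lower. Log2 fold changes then changed sign for Hspa5 (-0.98), Hyou1 (-0.93), Sdf2l1 (-0.061), Creld2 (-0.61), Calr (-1.06), Pdia4 (-1.04), Atf6 (-0.45), Atf4 (-0.95), Ddit3 (-0.99), Trib3 (-0.50), Herpud1 (-0.69) and Edem1 (-1.02), and for Ssr4 (-0.41), Ero1l (-0.14), Erlec1 (-0.55), Atf6b (-0.12) and Hspe1 (-0.46). Relative to the shifted median, Sdf2l1 was at 1.01, Chac1 at 1.11, Atf6 at 0.62 and Trib3 at 0.57. Upper-quartile scaling changed the sign of Calr (-0.056), Pdia4 (-0.031) and Edem1 (-0.007), none of which passed the test. DESeq2 called 22 related genes higher, and 2951 of all 18497 genes it tested. The cause of the larger counts was not tested.

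With 1 library left out, 2 to 4 of the 37 genes passed as higher and 10 to 13 as lower, and 5 to 17 related genes as higher and 20 to 31 as lower. Of all 18504 tested genes, 1412 to 2539 passed as higher and 2702 to 3157 as lower, against 2519 and 3329 with all libraries. The sign varied among these fits for genes that did not pass: Hspa5 (-0.004 to 0.177), Dnajc3 (-0.313 to 0.004), Manf (-0.222 to 0.053), Calr (-0.11 to 0.11) and Pdia4 (-0.079 to 0.112). Dnajb9, Pdia5, P4ha2, Fkbp7, Fkbp9, Fkbp10, Fkbp14, Eif2ak3, Creb3l1 and Creb3l2 passed as lower under every alternative run. With the replicate block, 3 of the 37 passed as higher and 12 as lower: Xbp1 and Trib3 did not pass, P4ha1 did, and the other 34 kept their call. Of all 18504 tested genes, 2416 then passed as higher and 3177 as lower. Same-numbered libraries correlated at 0.0528, 0.0562 and -0.0474 in their deviations from the group means. Such values cannot show whether same-numbered libraries share an animal or day, and the labels do not say. Without a filter Xbp1 did not pass (adjusted p = 0.118) and P4ha1 did (0.00541), as it did under upper-quartile scaling (0.0472). The lowest count of the 37 genes in any library was 17. With 200 of 18504 genes changed in simulated counts, 24 of 100 2-fold changes were recovered. In the real fit 31.6% of tested genes passed, so its adjusted threshold was less strict and its own recovery was not measured. The share of depth in the simulated recovery was not tested.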
